A study of Mus musculus with 415 samples.

Results

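The Lhx1 locus was described as 6 accessible regions of the 23180 in a single-cell ATAC-seq table. They are all the regions that overlap a 100 kb window on chromosome 11, from 84.31 to 84.41 Mb of the mouse genome build mm9, chosen to take in Lhx1 and the stretch upstream of it. The window had been picked with accessibility values of the same cells in view. Shares of open cells, overall and by cell cluster, and co-opening within the window and with other chromosomes are therefore descriptions, without a test.

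ATAC-seq marks accessible DNA through the cuts of the Tn5 transposase. Each sample of the series is 1 cell, and all belong to 1 group, R1 mouse embryonic stem cells aggregated in hanging drops for 48 hours into embryoid bodies and then exposed to retinoic acid for 4 days, at 0.5 mM per the labels. Cells were captured and tagmented on the Fluidigm C1 system. The labels name no separate cultures and no untreated cells, so the series is 1 sample, cells are not replicates, and intervals cover the counting of cells only.

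Lhx1, also called Lim1, encodes a homeodomain transcription factor with LIM domains, protein interaction modules through which it binds the cofactor Ldb1. In the mouse embryo it is needed for the formation of the head and acts in the visceral endoderm, the axial mesendoderm, the intermediate mesoderm that gives rise to the kidney, and groups of spinal and cerebellar neurons. Genes of this kind are often controlled by several separate enhancers, each used in some of these tissues. Retinoic acid, a derivative of vitamin A, acts through nuclear receptors and drives embryonic stem cells out of pluripotency.

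On the later build GRCm38 the neighbours of Lhx1 are Aatf, which encodes a transcriptional cofactor of cell survival, on the side of lower coordinates, and the long noncoding RNA gene Lhx1os on the side of higher coordinates. Lhx1 lies there on the minus strand. No gene model on mm9 was used here, and no region of the window was assigned to a promoter, an exon or an intron. The start of the gene is shown as RefSeq gives it on GRCm38.p6 at chr11:84525485-84525784, minus strand, from 250 bases before the start to 50 after it, because it is the promoter of the gene for which the window was chosen. These coordinates are on another build and cannot be set against those of the regions. Capitals mark the 2 motif matches found.
Lhx1 promoter: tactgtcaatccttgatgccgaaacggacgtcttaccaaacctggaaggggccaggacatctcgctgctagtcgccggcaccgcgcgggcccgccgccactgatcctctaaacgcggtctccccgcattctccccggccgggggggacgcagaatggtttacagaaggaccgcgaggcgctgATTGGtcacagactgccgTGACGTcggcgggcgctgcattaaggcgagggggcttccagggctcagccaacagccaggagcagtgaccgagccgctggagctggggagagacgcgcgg
This stretch has 31 CpG dinucleotides, a number exceeded by 9.52% of the 32851 promoters of the table, and a GC content of 65.7%, against a median of 52.7%. The CCAAT box, CCAAT or its reverse complement, is found once, as it is at least once in 37.4% of all promoters. The core of the cAMP response element, TGACGT on either strand, is found once and occurs in 7.51% of promoters. The 2 matches do not overlap. The half-site of the retinoic acid receptor, AGGTCA, the homeodomain core TAATTA and the GC box GGGCGG, searched on both strands, have no match in these bases and occur in 16.3%, 5.29% and 35.7% of promoters.

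The regions are named A to F in the order of their coordinates, and a cell counts as open at a region with any value above 0. Closed means only that no signal was recorded there, which does not show that the DNA was inaccessible. A and B stand alone at the lower end of the window, 11.1 kb apart. C, D, E and F form a group within 16.7 kb at the upper end, at higher coordinates, 43.4 kb from B. Treating these 4 as a group was decided after their values were seen. The spaces between the members of this group are 4.01, 3.66 and 6.23 kb.

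A and B were open in more cells than each member of the upper group. Region A, from 84326646 to 84327484, was open in 26.7% of cells (exact 95% interval 22.5% to 31.3%). Region B, from 84338560 to 84339538, was open in 83 cells (20%, 16.3% to 24.2%). In the same cells, 73 were open at A and not at B, and 45 at B and not at A.

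In the upper group, region C, from 84382922 to 84384211, was open in 53 cells (12.8%, 9.71% to 16.4%). Region D, from 84388222 to 84388692, was open in 36 cells (8.67%, 6.15% to 11.8%). Region E, from 84392352 to 84392889, was open in 47 cells (11.3%, 8.44% to 14.8%), and region F, from 84399119 to 84399662, in 54 cells (13.0%, 9.93% to 16.6%). The intervals of these 4 overlap one another, and that of B overlaps those of C and F and lies above those of D and E. Over all regions of the table the median share was 14.5%, with quartiles of 9.88% and 23.6%, so that A lay above the upper quartile and D below the lower one. Region C is the widest at 1289 bp and D the narrowest at 470 bp, where the median of all regions is 762 bp.

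**Figure D1:**
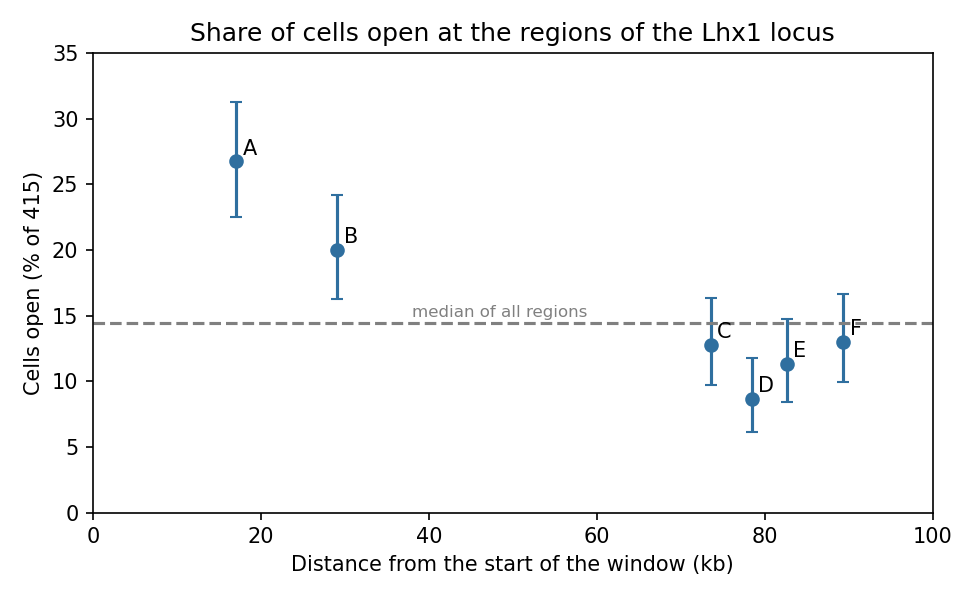
Share of all cells open at each region of the window (vertical axis, percent) against the distance of the region's middle from the start of the window (horizontal axis, kb). Points are shares and bars exact 95% intervals; the dashed line is the median of all 23180 regions, 14.5%. A and B stand at 26.7% and 20%, and the 4 upper regions between 8.67% and 13.0%.

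Each opening rested on little signal. A fragment is taken as the aligned bases of 1 pair of reads of 74 bases. In region A the open cells held 0.128 to 3 fragments with a median of 1, and in region B 0.162 to 2.88 with a median of 1. In region C they held 0.189 to 3.57 (median 1), in D 0.149 to 2.30 (median 0.838), in E 0.0338 to 2.32 (median 1) and in F 0.378 to 4.16 (median 1). More than 1 fragment was present in 31.5% of the open cells of A, 21.7% of B, 28.3% of C, 25% of D, 12.8% of E and 20.4% of F, where 29.5% of all open values in the table exceeded 1 fragment.

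Openness followed depth. The cells in which A was open had a median of 5486 open regions, and those in which it was closed 3418.5. For C the medians were 5697 in open cells and 3640.5 in closed cells. In the deepest of 4 equal sets of cells A was open in 51% and C in 26%, and in the shallowest A was open in 11.5% and C in 4.81%. For this reason the following numbers are ratios of observed to expected open cells. The expectation is fitted from the share of each region and the depth of each cell over the whole table, and the value 1 means what depth and share alone give.

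The window's ends fell in stretches without listed regions. Just outside it, the nearest region below, from 84210611 to 84211033, lies 99 kb from the window's start and was open in 33 cells (7.95%), and the nearest above, from 84456082 to 84456922, lies 46.1 kb from its end and was open in 37 cells (8.92%). Just inside, the outermost members are A and F, open in 26.7% and 13.0% of cells. No listed region was open in fewer than 31 cells, so the stretches between may hold sites open in fewer cells. The median share of all regions, given above, is of this same list.

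The members of the upper group were open in the same cells more often than depth gives, and less so with A or B. Over the 6 pairs within C to F, 76 joint openings were observed where 44.9 were expected, a ratio of 1.69 (exact Poisson 95% interval 1.33 to 2.12, counting error only). The 76 came from 47 cells, 10 of which had 3 or 4 of the regions open and gave several pairs each, so the openings are not independent counts and this interval is too narrow, as are those of the other sums over pairs. Over the 8 pairs of A or B with one of C to F, the ratio was 1.07 (0.896 to 1.28), with 119.1 expected. A and B were open together in 38 cells against 29 expected, a ratio of 1.31 (0.927 to 1.80), an interval that reaches below 1.

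The single pairs within the group ran from 1.20 to 2.10. D and E were open together in 12 cells where 5.70 were expected (ratio 2.10, interval 1.09 to 3.68), D and F in 13 against 6.52 expected (1.99, 1.06 to 3.41), and C and F in 18 against 9.50 expected (1.89, 1.12 to 2.99). The intervals of these 3 pairs lay above 1. C and D were open together in 12 cells against 6.40 expected (1.87, 0.968 to 3.27), E and F in 11 against 8.46 (1.30, 0.649 to 2.33), and C and E in 10 against 8.31 (1.20, 0.577 to 2.21). Stated as shares, F was open in 34% of the cells in which C was open (21.5% to 48.3%) and in 9.94% of those in which C was closed (7.06% to 13.5%), where depth alone gives 19.4% in the cells with C open. D was open in 22.6% of the cells with C open (12.3% to 36.2%), against 6.63% of those with C closed (4.29% to 9.70%), and depth alone gives 13.2% in the cells with C open.

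**Figure D2:**
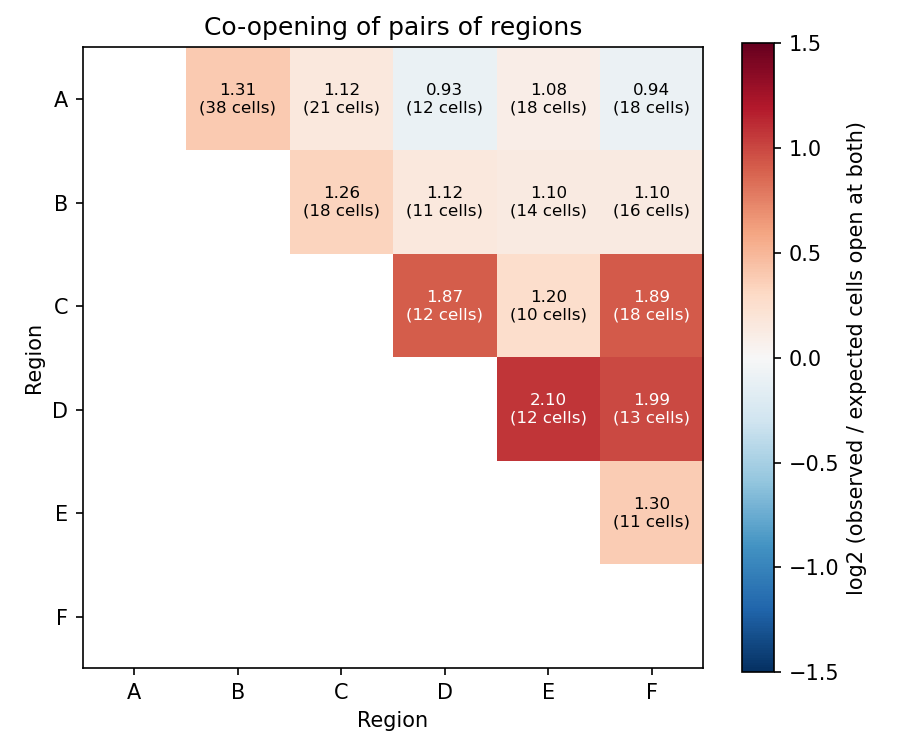
Observed over expected number of cells open at both regions, for the 15 pairs of regions A to F; colour is the log2 of this ratio, and each field gives the ratio and the observed number of cells. The pairs among C to F range from 1.20 to 2.10, and those that join A or B to C to F from 0.931 to 1.26.

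Neighbouring regions share cells more often than depth gives on all chromosomes, so these ratios were set beside all pairs at like distances with at least 5 expected joint cells. Of the pairs 2 to 10 kb apart, 10.9% of 3507 had a ratio of at least 1.5, and their median was 1.10. Of the 4 pairs of the upper group at that distance, C with D and D with E passed 1.5. Of the pairs 10 to 50 kb apart 7.15% passed (median 1.06). C with F and D with F lie in that class and passed, while A with B, B with C and B with D did not. None of the 6 pairs of the window 50 to 100 kb apart passed, in a class where 5.17% of 20392 pairs did. Of all pairs in their class, 1.17% had a higher ratio than D with E, 1.03% a higher one than D with F and 1.54% a higher one than C with F. C with E and E with F were exceeded by 33.8% and 22.6%. The classes were not matched for expected joint cells, and ratios spread more widely where few are expected. D with E and D with F, with 5.70 and 6.52 expected, stood near the minimum of 5. By the correlation of depth-corrected openness the order differed: 0.912% of the class exceeded C with F, 2.22% D with E, 5.04% D with F, 8.84% C with D, 9.32% C with E and 11.9% E with F.

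Cells with several upper regions open were more numerous than expected, and so were cells with none. All 4 of C to F were open in 3 cells where 0.371 were expected, 3 were open in 7 cells where 4.57 were expected, and 2 in 37 where 28.9 were expected. Exactly 1 was open in 83 cells against 116.9 expected, and none in 68.7% of cells against 63.7% expected. At least 2 of the 4 were thus open in 47 cells, against 33.9 expected. Of A and B, both were open in 38 cells where 29 were expected, 1 in 28.4% of cells where 32.8% were expected, and neither in 62.4% where 60.2% were expected.

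**Figure D3:**
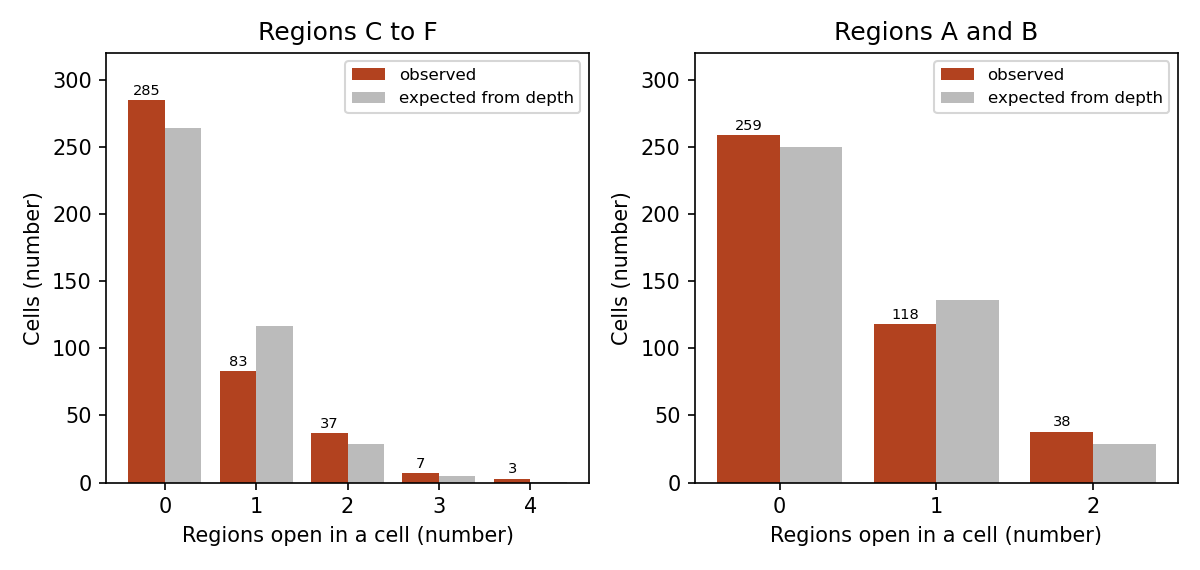
Number of cells (vertical axis) by how many regions are open in a cell (horizontal axis), for C to F on the left and A and B on the right; coloured bars are observed cells and grey bars the number expected from depth and share. At least 2 of C to F are open in 47 cells, against 33.9 expected.

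The ratio within C to F was above 1 in each of 4 consecutive sets of cells by title number, whose meaning the labels do not give. By rising number, the sets had ratios of 2.31 (1.29 to 3.81), 1.62 (0.806 to 2.89), 1.95 (1.30 to 2.79) and 1.14 (0.708 to 1.75). The pooled ratio was 1.60 in the cells of median depth or more and 1.61 with a logistic expectation. It was 0.650 (0.0787 to 2.35) with a minimum above 1 fragment, which left 2 joint openings where 3.08 were expected, and 0.901 (0.109 to 3.25) after thinning every cell to 1500 open regions, which left 2 where 2.22 were expected.

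The upper regions were rarely recorded as open in 1 of 3 groups of cells that had been made without chromosome 11. The cells were clustered on the even-numbered autosomes, into 3 clusters numbered by size, and the regions of the window were read in them. The clusters come from the same cells in view of which the window was picked. Co-opening with other chromosomes enters both, so the shares by cluster are a description and no separate evidence. In cluster 3, which held 26.8% of the cells, C, D and F were each open in 3 cells (2.70%, 0.561% to 7.70%) and E in 2 cells (1.80%, 0.219% to 6.36%). In the remaining cells C was open in 16.5% (12.5% to 21.2%), D in 10.9% (7.62% to 15.0%), E in 14.9% (11% to 19.4%) and F in 16.8% (12.8% to 21.5%). The intervals of cluster 3 and of the remaining cells do not overlap for C, E and F, and they just overlap for D.

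Corrected for depth, open cells in cluster 3 were 0.223 of the expected number for C, 0.330 for D, 0.168 for E and 0.219 for F. A and B departed less, with 0.804 and 0.754 of the expected number, and were open in 20.7% (13.6% to 29.5%) and 14.4% (8.47% to 22.4%) of cluster 3 against 29% (24% to 34.5%) and 22.1% (17.6% to 27.2%) of the remaining cells. Among the 12362 regions of the odd-numbered autosomes, which did not enter the clustering, 27% had at most 1/1.5 of their expected open cells in cluster 3, so a deficit as such was common. Those of C, D, E and F were deeper than most: 3.37%, 7.90%, 1.81% and 3.15% of these regions had a lower ratio. These regions were not matched for share of open cells, and ratios spread more widely where few open cells are expected. In cluster 3 the expected open cells were 13.4 for C, 9.08 for D, 11.9 for E and 13.7 for F. At least 2 of C to F were open in 1 cell of cluster 3 (0.901%, 0.0228% to 4.92%), against 46 of the remaining cells (15.2%, 11.3% to 19.7%).

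In cluster 1, the largest with 44.7% of the cells, the same 4 regions were above expectation, a surplus that depended on how the cells were clustered. The ratios were 1.58 for C, 1.62 for D, 1.51 for E and 1.55 for F, and 1.11 for A and 1.18 for B. Of the regions of the odd-numbered autosomes, again not matched for share, 5.72% reached 1.5 and 12.6% were at most 1/1.5. C was open in 17.8% of cluster 1 (12.6% to 24.1%) and in 8.73% of the remaining cells (5.42% to 13.2%). In cluster 2, with 28.5% of the cells, where 7.86% of those regions reached 1.5, C to F stood at 0.912, 0.785, 1.03 and 0.949 of expectation and A and B at 1.03 and 0.972. Depth differed between the clusters, with a median of 3427 open regions per cell in cluster 1, 4822.5 in cluster 2 and 3709 in cluster 3. Pooled over C to F, the highest ratio of a cluster was 1.56. It was 1.27 with 2 clusters, 1.78 with 4 and 1.53 with clusters made on the odd-numbered autosomes without chromosome 11. With the first component kept it was 1.28, in a clustering with an adjusted Rand index of 0.326 to the one used here. The lowest ratio of a cluster stayed between 0.204 and 0.235 in all of these clusterings.

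**Figure D4:**
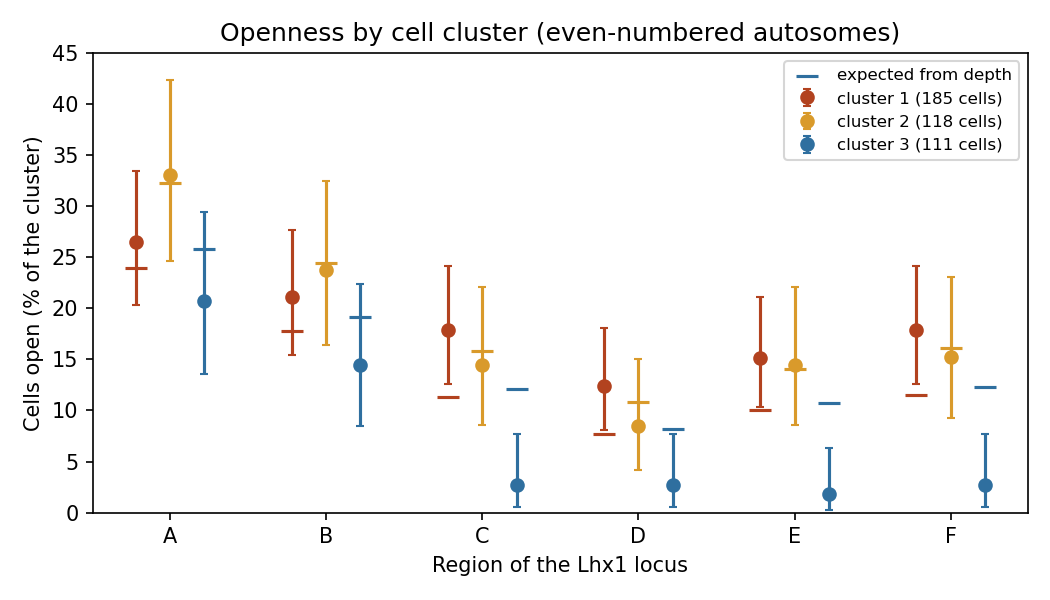
Share of cells open at each region (vertical axis, percent of the cluster) in 3 cell clusters made on the even-numbered autosomes; points are shares, bars exact 95% intervals, and short dashes in the colour of the cluster the share expected from depth. In cluster 3, C to F lie between 1.80% and 2.70%, below their dashes, while A and B lie nearer to theirs.

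The co-opening ratio of C to F was lower when the expectation took in the shares by cluster. Those shares come from the same cells, so a deficit common to C to F in a cluster raises the expectation by construction. Whether the clusters account for co-opening was not tested. When the expectation was scaled to the share of each region within each cluster, the 76 joint openings stood against 55.9 expected, a ratio of 1.36 (1.07 to 1.70, too narrow for the same reason, with a lower end near 1), compared with 1.69 before. Within cluster 1 it was then 1.30 (0.967 to 1.71), with 51 joint openings, and within cluster 2 it was 1.49 (0.954 to 2.21), with 24. Cluster 3 had 1 joint opening. The openness of the group also moved with title number: C to F reached 0.795 and 0.778 of the expected open cells in the 2 sets of lowest numbers and 1.13 and 1.28 in the 2 highest, where A and B stood at 0.863, 1.01, 1.05 and 1.07. The clusters were also unevenly spread: cluster 3 made up 37.5% and 38.8% of the cells in the 2 sets of lowest numbers and 15.4% and 15.5% in the 2 highest, and cluster 1 made up 32.7%, 39.8%, 53.8% and 52.4%. Within each set the order of clusters 1 and 3 was the same as in all cells. By rising number, C to F reached 0.124, 0.302, 0.262 and 0.254 of expectation in cluster 3, from 2, 5, 2 and 2 openings, and 1.75, 1.24, 1.63 and 1.65 in cluster 1. This split was added after the data were seen.

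On other chromosomes, 21404 regions were compared with the window by the number of joint openings, summed over its regions, relative to expectation. With all 6 regions, 28 regions (0.131%) reached 1.5-fold of expectation and 1005 (4.70%) were at most 1/1.5 of it. These numbers depended strongly on the settings: 8.39% were higher and 23.1% lower with a minimum above 1 fragment, 11.5% and 20.7% after thinning, and 8.99% and 8.77% in the cells of lowest title number. The upper group had more regions on either side. With C to F, 429 regions (2.0%) were at least 1.5-fold and 2127 (9.94%) at most 1/1.5 of expectation; the higher ones were 1.2% in the cells of median depth or more and 1.10% with the logistic expectation. With A and B, 41 regions (0.192%) were higher and 1.35% lower. At 2-fold, the higher regions were 0% with all 6, 0.00467% (1 region) with C to F and 0% with A and B, and the lower ones 0.874%, 5.26% and 0.0701%. The 2 higher sets shared 4 regions. This is 0.932% of the 429, where 0.192% of all 21404 regions were higher with A and B. It is 9.76% of the 41, where 2.0% of all were higher with C to F. The joint openings expected were close for both groups, for example 23.7 with C to F and 23.3 with A and B for the nearest region above the window. The spread of ratios also depends on how openings gather in cells. At least 1 of C to F was open in 31.3% of cells, and at least 1 of A and B in 37.6%. The counts of the 2 groups were not matched for this, so their difference cannot be read as a trait of the upper group.

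**Figure D5:**
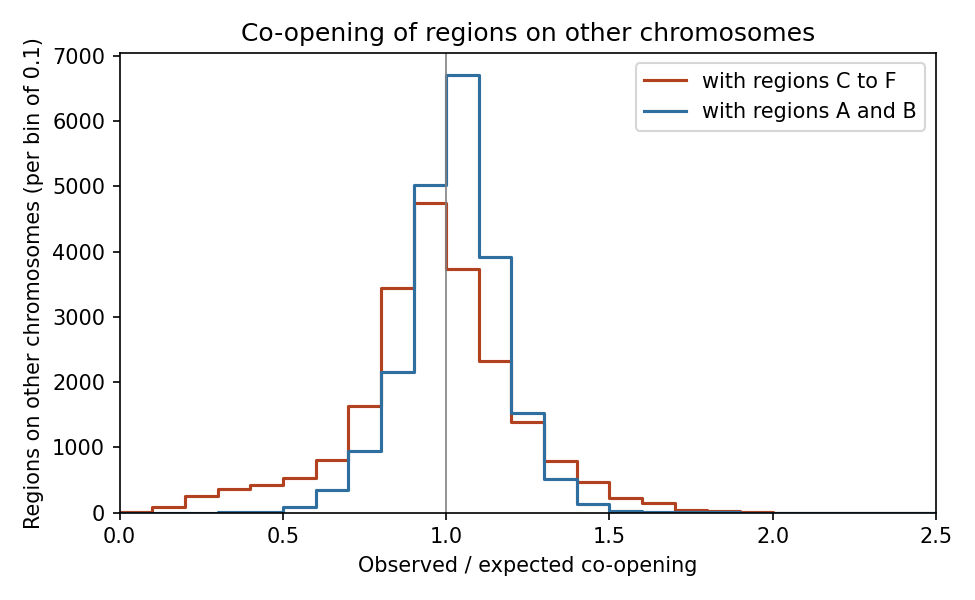
Number of regions on other chromosomes (vertical axis, per bin of 0.1) by observed over expected co-opening (horizontal axis) with regions C to F and with regions A and B. With C to F the distribution is wider, with 2.0% of regions at 1.5 or more and 9.94% at 1/1.5 or less, against 0.192% and 1.35% with A and B.

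The regions most like the whole window were ranked by the correlation over all cells of their depth-corrected openness with the mean of the 6 regions, among regions open in at least 10% of cells. All regions were read in the same cells, and the correlations were low. The highest was 0.263, for chromosome 1 from 154011910 to 154013060, open in 85 cells (20.5%), with 1.35-fold of the 104.9 joint openings expected. It was followed by chromosome 2 from 31304638 to 31305264 (correlation 0.262, 1.40-fold) and chromosome 7 from 133152149 to 133152629 (0.253, 1.62-fold). The next were chromosome 3 from 130648525 to 130649367 (0.250, 1.39-fold), chromosome 5 from 77093735 to 77095785 (0.248, 1.24-fold) and chromosome 2 from 180201144 to 180201620 (0.247, 1.41-fold). Ranks 7 to 10 were on chromosome 13 from 36285037 to 36285861 (0.242, 1.28-fold), chromosome 4 from 133986155 to 133986873 (0.238, 1.40-fold), chromosome 17 from 47948218 to 47948750 (0.238, 1.51-fold) and chromosome 5 from 15499082 to 15499634 (0.237, 1.44-fold). The mean of the 6 regions holds 4 from the upper group, which correlate among themselves, so this ranking leans to regions that go with C to F.

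Since these regions were chosen for their likeness to the window in the same cells, the shares that follow restate that choice in cells and are no further evidence of it. The region on chromosome 13 was open in 34% of the 47 cells with at least 2 of C to F open (20.9% to 49.3%), in 16.9% of the 83 cells with 1 and in 5.96% of those with none. Depth alone gives 16.3% in the first of these. The first-ranked region, on chromosome 1, was open in 51.1% of the cells with at least 2 (36.1% to 65.9%), where depth gives 28.8%, in 28.9% of those with 1 and in 13.0% of those with none.

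The regions least like the window were chosen in the same way, so their low shares beside open upper regions restate the choice. The lowest correlation was -0.243, on chromosome 15 from 11655618 to 11656294. This region was open in 1 of the 47 cells with at least 2 of C to F open (2.13%, 0.0539% to 11.3%), in 6.02% of those with 1 and in 24.2% of those with none. The next were chromosome 4 from 138942798 to 138943554 (-0.212, 0.491 of expected joint openings) and chromosome 12 from 113135154 to 113135740 (-0.203, 0.451 of expected). The region on chromosome 15 was open in 60 cells of cluster 3 (54.1%, 44.3% to 63.6%), which is 3.14 times expectation, and in 6 cells of cluster 1 (3.24%, 1.20% to 6.93%).

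The regions that went with C to F showed the same order of clusters on chromosomes that had not entered the clustering. The median ratio of the higher regions on odd-numbered autosomes was 1.44 in cluster 1, 0.985 in cluster 2 and 0.363 in cluster 3, where the medians over all 12362 regions were 1.01, 0.965 and 0.961. In cluster 3, 93.3% of them were at most 1/1.5 of expectation, where 27% of all such regions were. Of the 1071 lower regions on these chromosomes, the median was 0.456 in cluster 1, 0.532 in cluster 2 and 2.47 in cluster 3. These sets were chosen for co-opening with C to F in the same cells, so the medians are a description.

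Each region of the window also had a closest single region on another chromosome, by the same correlation among regions open together with it in at least 10 cells. For A it was on chromosome 19 from 15742497 to 15743109, open with A in 30 cells against 16.4 expected (1.83-fold, 1.23 to 2.61). For B it was on chromosome 8 from 122702925 to 122703305, with 20 cells against 12.8 expected (1.57-fold, 0.958 to 2.42). For C it was on chromosome 2 from 164748780 to 164749230, with 19 cells against 8.82 expected (2.15-fold, 1.30 to 3.36). D had its closest region on chromosome 4 from 9245169 to 9245807 (14 cells, 7.10 expected, 1.97-fold, 1.08 to 3.31) and E on chromosome 6 from 88923758 to 88924957 (21 cells, 10.6 expected, 1.99-fold, 1.23 to 3.04). F had it on chromosome 2 from 31304638 to 31305264 (17 cells, 9.15 expected, 1.86-fold, 1.08 to 2.97), the second-ranked region for the whole window. These 6 regions all differ, but each is only the highest of many candidates, so this does not show a separate partner for each. Over single regions, 0.533% of the regions on other chromosomes reached 1.5-fold with A, 1.80% with B, 8.60% with C, 4.63% with D, 3.93% with E and 3.48% with F, among those with at least 5 expected joint cells, where 3.26% of all pairs on different chromosomes did. A and B were open in more cells than C to F, and ratios spread less where more joint cells are expected. These shares were not matched for that, so A and B cannot be set against C to F by them. Each closest region was picked among 7140 to 15571 candidates, so its ratio leans high.

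Along chromosome 11, the 36 regions within 1 Mb outside the window were compared by the same correlation, but without a minimum share of open cells. The closest was the region from 84486340 to 84486693, open in 37 cells (8.92%), with a correlation of 0.196 and 1.55-fold the expected joint openings with all 6 regions. This region and the next ones by correlation were chosen for likeness to the window in the same cells, so their shares and ratios restate that choice. The closest region was open in 27.7% of the 47 cells with at least 2 of C to F open (15.6% to 42.6%), where depth gives 12.9%. It was open in 14.5% of those with 1 and in 4.21% of those with none. Its joint openings were 1.94-fold of expectation with C to F (46 against 23.7), while its correlation with A and B was 0.00754. The next were from 84189891 to 84190720 (0.187, 1.55-fold) and from 84542570 to 84542843 (0.150, 1.25-fold). The region just above the window, from 84456082 to 84456922, had 1.31-fold of expected joint openings with C to F and 0.899 with A and B, and the one just below it 1.51-fold and 1.25-fold.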

How the data were processed

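Per the labels, the 415 samples are single cells of 1 group. The deposited table gives a whole-number signal per region and cell on mm9, unscaled. Of the values above 0, 37.6% equal 148 and 51.1% are multiples of 74, the pattern of aligned bases of paired reads. MACS2 and mm9 are named in the submitters' processing notes without a role; for the aligner, duplicate handling and region choice, nothing was given in the sources used. Cells held 756 to 12267 open regions and 791 to 25069 fragments (medians 3928 and 4529); no 2 cells held identical values. No doublet caller was run. The window was chromosome 11, 84310000 to 84410000. Column names match 1 title each.

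Expected openness was 1 − exp(−region rate × cell rate), fitted to all regions and cells with numpy 2.4.6. Joint openings were compared with the product of expectations; residuals, divided by their expected SD, were correlated. Clusters came from term-frequency weighted openness (scaled by 10000), components 2 to 10 of a singular value decomposition and k-means with 50 starts (scikit-learn 1.9.0), on cells with at least 1000 fragments, which left out 1 cell. Intervals are exact (Clopper-Pearson or Poisson, 95%). Named are all regions of the window, its outer neighbours, and, by correlation, the 10 highest and 3 lowest on other chromosomes (open in at least 10% of cells), the closest of each region (same minimum, at least 10 joint cells) and 3 within 1 Mb. A list of Lhx1 partner genes was not run, since it needs a gene annotation on mm9. Members and lists were chosen with earlier results of these data known. Treating C to F, and A and B, as groups, and the minimum of 5 expected cells, were chosen after seeing the data.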

Additional observations from a re-analysis of the deposited data

How the results depend on the processing

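Of the alternative values, 50 stayed close to the reported one (within its counting interval or, for numbers of regions, within 1.5 times), 48 moved further and 5 crossed a ratio of 1. The shares of A to F were 8.43%, 4.34%, 3.61%, 2.17%, 1.45% and 2.65% with a minimum above 1 fragment, 39.9%, 30.8%, 21.2%, 13.9%, 16.3% and 17.3% in cells of median depth or more, and 8.90%, 6.28%, 4.71%, 1.05%, 3.66% and 3.40% after thinning to 1500 open regions, which left out 33 cells. Co-opening over all 15 pairs was 1.25 (1.10 to 1.42) and turned to 0.839 above 1 fragment (0.458 to 1.41) and to 0.933 after thinning (0.466 to 1.67). Within C to F these settings gave 0.650 (0.0787 to 2.35) and 0.901 (0.109 to 3.25), and the lowest and highest title numbers gave 2.31 and 1.14. A with B turned to 0.936 after thinning (0.113 to 3.38). The intervals of the thinned and above-1-fragment values hold 1, and their cause was not tested beyond the few joint openings left.

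On other chromosomes, with all 6 regions, 0.131% of regions were higher and 4.70% lower. These became 8.39% and 23.1% above 1 fragment, 11.5% and 20.7% after thinning, and 8.99% and 8.77%, 5.11% and 8.38%, 2.26% and 9.61%, and 1.08% and 12.2% in the 4 title sets, which hold fewer cells. They were 0% and 0.874% at 2-fold. Higher regions were 0.0467% at median depth or more, 0.0607% with the logistic expectation and 0.696% without region A. With C to F, higher regions were 1.2% at median depth or more, 1.10% with the logistic expectation and 0.00467% at 2-fold, where 5.26% were lower. With A and B they were 0.0561% at median depth or more and 0% at 2-fold, where 0.0701% were lower.

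The highest ratio of a cluster was 1.35 for A to F and 1.56 for C to F. Keeping the first component gave 1.16 and 1.28, 2 clusters gave 1.27 for C to F, and the second title set gave 1.24. For C to F, 4 clusters gave 1.78 and the odd-numbered autosomes without chromosome 11 gave 1.53. The lowest ratio for C to F was 0.229 with 3 clusters, 0.225 with 2, 0.204 with 4, 0.220 on the odd-numbered autosomes without chromosome 11 and 0.235 with the first component. No region of the window was open in 50% of cells, so leaving out such regions was not run. No paired analysis was possible because all cells belong to 1 group.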

Other observations

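The 10 regions on other chromosomes closest to C to F alone were chosen for their likeness to the same 4 regions in the same cells, so co-opening among them follows in part from the choice. Over their 42 pairs on different chromosomes, the ratio of observed to expected joint openings had a median of 1.39, from 1.02 to 2.15, and was at least 1.5 in 13 pairs, where 3.26% of all pairs on different chromosomes with at least 5 expected joint cells reached 1.5. No like value for regions chosen in this way was computed. The first of them was the region on chromosome 13 from 36285037 to 36285861 (correlation 0.307 with C to F, -0.0330 with A and B), which was open in 0 cells of cluster 3, where exact counting allows up to 3.27%. The third was on chromosome 1 from 9568613 to 9569263, open in 23.6% of cells (0.297 with C to F, -0.0785 with A and B). It was open in 59.6% of the 47 cells with at least 2 of C to F open, where depth gives 33%, and in 15.8% of those with none.

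The 429 regions higher with C to F lay on all 19 other chromosomes. Their median width was 545 bp and their median share of open cells 9.40%, against 760 bp and 14.5% over all regions on other chromosomes. The regions lower with C to F had medians of 596 bp and 9.64%. Those higher with A and B had 628 bp and 8.43%, and those lower with A and B 541.5 bp and 8.67%. Low width and share thus went with being called in either direction and are not particular to the 429.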
